A study of Homo sapiens with 6 samples.

Results

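The genes described here include the atypical mitogen-activated protein kinases MAPK4 (ERK4), MAPK6 (ERK3), MAPK15 (ERK7/8) and NLK. With them are MAPK7 (ERK5), a MAP kinase with the classical activation-loop motif, MAPKAPK5 (MK5) and the group I p21-activated kinases PAK1, PAK2 and PAK3. All these are 9 of the 58735 genes in the deposited count table. The set was selected on the change of MAPK4 between the groups of this series, which was known beforehand, and the other 8 genes were added by name as its relatives and partners. The values of MAPK4 are therefore a description and carry no test.

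RNA sequencing was done on A549, an established human lung adenocarcinoma cell line. The 3 control libraries came from cells carrying the empty lentiviral vector, and the 3 IL17D libraries came from cells carrying the same vector with the coding sequence of IL17D, a member of the interleukin-17 cytokine family. In this vector the human PGK promoter drives the insert, and GFP follows behind an internal ribosome entry site, so the cells of both groups had been transduced. The labels do not say whether replicates were separate cultures or separate transductions, so the spread between libraries may be technical, and the tests measure only that spread. The comparison asks which transcripts differ when a lung cancer cell line carries the cytokine gene.

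Total counts ranged from 14319398 to 16521021 per library, and 3 counts, taken as the limit of detection, equalled 0.182 to 0.210 CPM, the count scaled to a library of 1000000 counts. The targeted gene IL17D had 18 to 34 counts in the control libraries and 26772 to 32155 in the IL17D libraries, as the labels state. Summed CPM of 6 epithelial markers was 12700 to 13200 in control and 12300 to 12600 in IL17D libraries. Nearly all of it came from the keratins KRT8, KRT18 and KRT7. CDH1 was at 32.3 to 46.1 CPM, whereas EPCAM did not exceed 1.30 CPM and KRT19 did not exceed 0.667 CPM. The 5 alveolar type II markers summed to 1.61 to 3.07 CPM in control and 1.03 to 1.58 CPM in IL17D libraries. These markers were low in both groups, but NAPSA, at 0.667 to 2.27 CPM, was above the limit of detection. The 5 immune markers summed to 0.745 to 1.11 CPM in control and 0.728 to 1.21 CPM in IL17D libraries. PTPRC and CD3E were at 0 throughout, while CD14 was at 0.496 to 1.21 CPM, above the limit of detection. The 4 fibroblast markers summed to 22.5 to 24.9 CPM in control and 19.4 to 23.8 CPM in IL17D libraries, almost all from COL1A1. DCN, a defining marker, did not exceed 0.0621 CPM and COL1A2 did not exceed 0.123 CPM. PDGFRB was at 0.21 to 0.614 CPM, at or above the limit of detection.

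Classical MAP kinases are switched on by MAP kinase kinases, which phosphorylate a threonine and a tyrosine in the activation loop. ERK3 and ERK4 have a single phosphorylation site there, a serine in the motif Ser-Glu-Gly, which group I p21-activated kinases phosphorylate, and both bind and activate the kinase MK5. ERK5 keeps the classical Thr-Glu-Tyr motif but carries a long carboxy-terminal extension, NLK has Thr-Gln-Glu, and ERK7/8 phosphorylates its own loop. These kinases are regulated largely by phosphorylation, binding and protein turnover, none of which RNA counts measure.

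The coding bases of the activation loop are shown because the loop motif sets ERK3 and ERK4 apart from their relatives. They were read from GENCODE release 29 transcripts (GRCh38), with 48 coding bases each and the 3 codons of the motif in capitals.
MAPK4: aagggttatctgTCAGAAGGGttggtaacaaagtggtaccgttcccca
MAPK6: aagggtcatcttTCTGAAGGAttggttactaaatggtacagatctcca
MAPK7: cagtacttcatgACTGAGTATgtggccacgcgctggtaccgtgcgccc
NLK: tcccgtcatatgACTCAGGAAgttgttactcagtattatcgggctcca

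The MAPK4 window lies on the plus strand of chromosome 18, in pieces at chr18:50664502-50664504 and chr18:50715079-50715123, with an intron between the first codon and the rest. The MAPK6 window is split after the same codon, into chr15:52047013-52047015 and chr15:52049993-52050037 (plus strand). The windows of MAPK7 (chr17:19380852-19380899, plus strand) and NLK (chr17:28168490-28168537, plus strand) each lie in 1 exon. The first codon of the motif is codon 186 of 587 in MAPK4, 189 of 721 in MAPK6, 219 of 816 in MAPK7 and 298 of 527 in NLK. MAPK4 and MAPK6 share 38 of the 48 bases (79.2%), whereas MAPK4 shares 25 (52.1%) with MAPK7 and 25 with NLK. MAPK6 shares 22 (45.8%) with MAPK7 and 28 (58.3%) with NLK.

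MAPK4 (ENSG00000141639; chr18:50560078-50731824, plus strand) encodes ERK4, a stable relative of ERK3. Its level was 19.1, 17.2 and 16.1 CPM in the control libraries and 24.6, 24.9 and 24.6 CPM in the IL17D libraries. All IL17D libraries lay above all control libraries, with a gap of 5.52 CPM between the groups, and the IL17D libraries lay closer together than the control libraries. The mean was 17.5 ± 1.53 CPM in control and 24.7 ± 0.186 CPM in IL17D libraries (SD, n = 3 each), from 249 to 311 and 352 to 411 counts. The log2 fold change of IL17D over control was 0.50 (95% interval 0.32 to 0.69), a fold of 1.42. By size of log2 fold change MAPK4 stood at position 832 of the 15754 genes tested. In these bulk libraries, more cells with the transcript and more of it per cell cannot be told apart.

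MAPK6 (ENSG00000069956; chr15:51952106-52067372, plus strand) encodes ERK3, an unstable protein studied in lung cancer cells for its phosphorylation of the coactivator SRC-3. It was at 104, 106 and 109 CPM in the control libraries and at 113, 109.9 and 111 CPM in the IL17D libraries. The groups did not overlap, but the gap was only 1.02 CPM. On the log2 scale the fold change was 0.07 (SE 0.0444, 95% interval −0.02 to 0.16), with means of 106 ± 2.50 and 111 ± 1.79 CPM (SD, n = 3 each).

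MAPKAPK5 (ENSG00000089022; chr12:111841978-111902238, plus strand) encodes MK5, the kinase that ERK3 and ERK4 bind and activate. It was at 46.7, 49.5 and 44.7 CPM in control and 45.9, 44.4 and 47.1 CPM in IL17D libraries. These values were interleaved, and the log2 fold change was −0.04 (95% interval −0.16 to 0.09).

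The group I p21-activated kinases are effectors of RAC and CDC42 and act on the actin cytoskeleton as well as on ERK3 and ERK4. PAK1 (ENSG00000149269; chr11:77321707-77474635, minus strand) was at 51.2, 49.6 and 47.6 CPM in the control libraries and 41.6, 45.9 and 45.3 CPM in the IL17D libraries. Every IL17D library lay below every control library, by a gap of 1.71 CPM. The log2 fold change was −0.16 (SE 0.0631, 95% interval −0.29 to −0.03), but the adjusted p over all genes missed the threshold (adjusted p = 0.277 by the quasi-likelihood test of edgeR, adjusted after Benjamini and Hochberg).

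PAK2 (ENSG00000180370; chr3:196739857-196832647, plus strand), the widely expressed member of the group, was at 101, 99.6 and 108 CPM in control and 97.4, 106 and 99.9 CPM in IL17D libraries. The groups overlapped, and the log2 fold change was −0.02 (95% interval −0.12 to 0.07). PAK3 (ENSG00000077264; chrX:110944285-111227361, plus strand), known mainly from neurons, had 4, 1 and 3 counts in the control libraries and 0, 0 and 7 counts in the IL17D libraries. It was too low to test, and the ratio of IL17D to control, scaled to the totals, was 0.866 with an exact 95% interval of 0.267 to 2.73 that covers counting error only. Summed CPM of the 3 PAK genes was 153, 149 and 156 in control and 139, 152 and 146 in IL17D libraries, which overlapped.

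MAPK7 (ENSG00000166484; chr17:19377721-19383544, plus strand) encodes ERK5, which MAP2K5 activates and which acts on MEF2 factors. It was at 19.7, 19.8 and 21.2 CPM in control and 21.5, 21.4 and 20.1 CPM in IL17D libraries. The groups overlapped, and the log2 fold change was 0.06 (95% interval −0.12 to 0.24). NLK (ENSG00000087095; chr17:28041737-28196381, plus strand), which phosphorylates TCF and LEF factors of the Wnt pathway, was at 28.7, 27.9 and 31.4 CPM in control and 28.9, 33.0 and 29.4 CPM in IL17D libraries. Its groups overlapped as well, with a log2 fold change of 0.05 (95% interval −0.11 to 0.21). MAPK15 (ENSG00000181085; chr8:143716259-143722458, plus strand), linked to autophagy and cilia, had 6, 14 and 16 counts in control and 11, 11 and 11 counts in IL17D libraries. At this depth its log2 fold change of −0.14 had a 95% interval of −1.07 to 0.79, so a difference of either sign within it was not detectable.

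**Figure D1:**
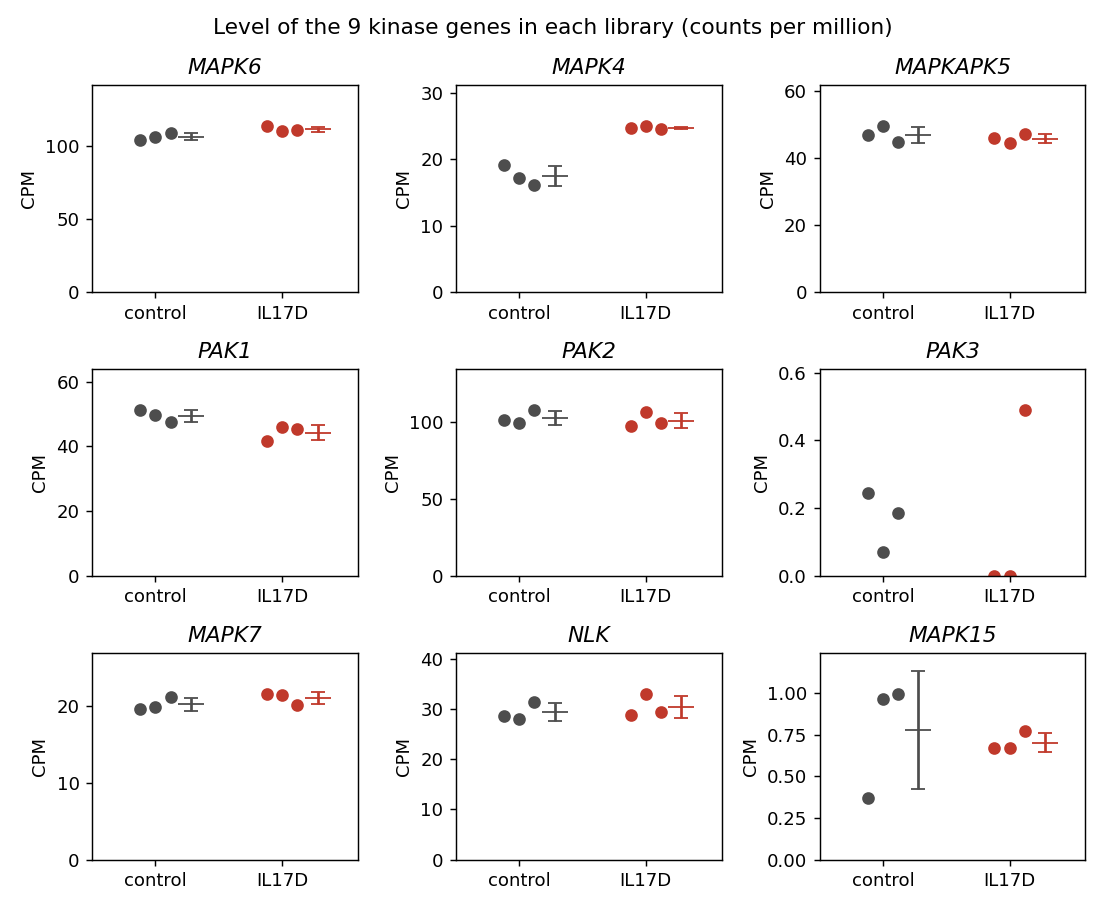
Level of each of the 9 kinase genes in CPM (vertical axis, from 0) in the control (grey) and IL17D (red) libraries, with 1 point per library and the mean and SD beside it (no mean for PAK3, whose libraries held 0 to 7 counts). MAPK4 had its IL17D libraries at 24.6 to 24.9 CPM and its control libraries at 16.1 to 19.1 CPM, while most other genes had interleaved points.

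**Figure D2:**
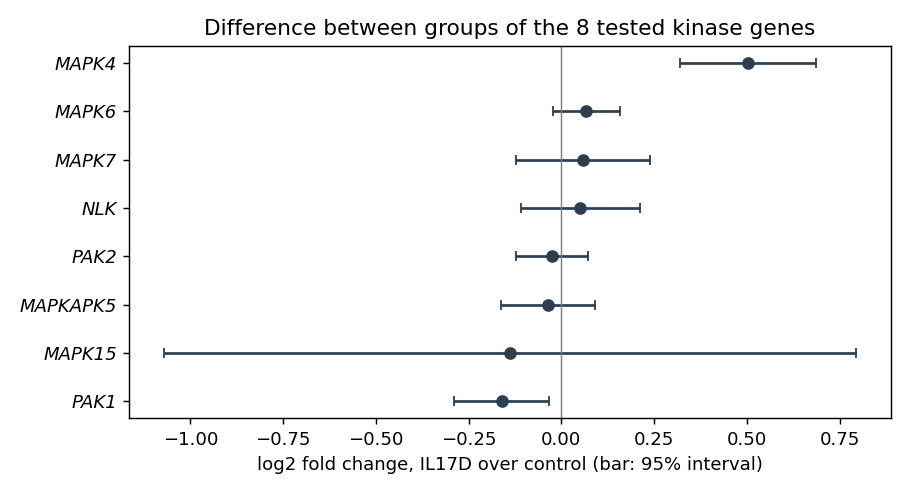
Log2 fold change of IL17D over control (horizontal axis) with its 95% interval for the 8 tested genes. The intervals of 6 genes hold 0. That of PAK1 (−0.29 to −0.03) lies below 0 but is not adjusted over all genes (adjusted p = 0.277 by edgeR). That of MAPK4 (0.32 to 0.69) is a description with no test, because the set was chosen on this gene.

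Of the 9 genes, 8 passed the filter on low counts and PAK3 did not. In the fit over all genes 1 of the 8, MAPK4, had an adjusted p under 0.05 and was higher in IL17D libraries, where 0.673% of all 15754 tested genes were called higher. None of the 8 was called lower, against 0.908% of all tested genes. DESeq2 and limma voom likewise called 1 of the 8, and 2 of the 8 had an unadjusted p under 0.05 by each of the 3 tools. Over all tested genes, an unadjusted p under 0.05 was found for 11.6% by edgeR, 7.69% by DESeq2 and 11.6% by limma voom. The groups did not overlap for 3 of the 8 (MAPK4, MAPK6 and PAK1), against 15.8% of all tested genes. Because the set was chosen by MAPK4's value in this contrast, nothing is read from these counts. The adjusted p values of the 7 others lay between 0.277 and 0.952. Of the 8 log2 fold changes, 4 were above 0 and 4 below 0, with a median of 0.01 against −0.00044 over all tested genes.

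Levels between genes were compared per length, as CPM divided by the merged exon length in kilobases (RPKM). In the control libraries the order was MAPK6 (16.6 ± 0.392 RPKM), PAK2 (16.4 ± 0.711), PAK1 (7.85 ± 0.288), NLK (5.55 ± 0.344), MAPK7 (3.89 ± 0.160), MAPKAPK5 (3.35 ± 0.172), MAPK4 (2.30 ± 0.202), MAPK15 (0.254 ± 0.116) and PAK3 (0.0162 ± 0.00872; SD, n = 3). MAPK6 and PAK2 overlapped over the control libraries and did not over the IL17D libraries. MAPKAPK5 and MAPK4 were apart in the control libraries, whereas in the IL17D libraries MAPK4 (3.25 ± 0.0244 RPKM) overlapped MAPKAPK5 (3.27 ± 0.0943 RPKM). No other neighbours in the order overlapped in either group. The place of MAPKAPK5 rested on the length used, since its merged exons span 14006 bases and its principal transcript 1630. Per length of 1 principal transcript, a choice made after seeing the data, MAPKAPK5 came first in control libraries at 28.8 ± 1.47 RPKM, ahead of MAPK6 at 19.9 ± 0.468 RPKM, and MAPK4 was at 3.66 ± 0.321 RPKM.

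Among 13 MAP kinase genes compared, MAPK6 had the highest RPKM over merged exons in the control libraries, ahead of MAPK3 (ERK1) at 9.11 ± 0.133 RPKM. MAPK4 was 10th, below MAPK8 (JNK1) at 3.47 ± 0.183 RPKM, and in the IL17D libraries its range overlapped that of MAPK8 (3.16 ± 0.205 RPKM). The lowest were MAPK15, MAPK13 (p38 delta) at 0.230 ± 0.0495 RPKM and MAPK10 (JNK3), the neuronal member, at 0.0464 ± 0.0107 RPKM. The 5 genes MAPK4, MAPK6, MAPK7, MAPK15 and NLK together made up 41.3%, 41.0% and 43.2% of the summed RPKM of the 13 in the control libraries. In the IL17D libraries they made up 43.5%, 44.3% and 43.1%, and these shares overlapped. Per length of 1 principal transcript, a choice made after seeing the data, MAPK12 (p38 gamma) came first at 22.3 ± 0.714 RPKM and MAPK6 second at 19.9 ± 0.468 RPKM, while MAPK4 stayed 10th. On that length the share of the same 5 genes was 30.8%, 30.3% and 31.9% in control and 33.0%, 33.2% and 32.6% in IL17D libraries, without overlap. Whether the shares overlap therefore rests on the length used. These shares, and the MAPK4 share and ratio that follow, hold the value of MAPK4, on which the set was chosen. They are a description and carry no test. Over merged exons MAPK4 alone made up 3.69%, 3.27% and 3.10% in control and 4.58%, 4.68% and 4.61% in IL17D libraries. The ratio of MAPK6 to MAPK4 in RPKM was 6.47, 7.35 and 8.06 in control and 5.48, 5.24 and 5.36 in IL17D libraries, so ERK3 transcripts exceeded ERK4 transcripts in every library.

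**Figure D3:**
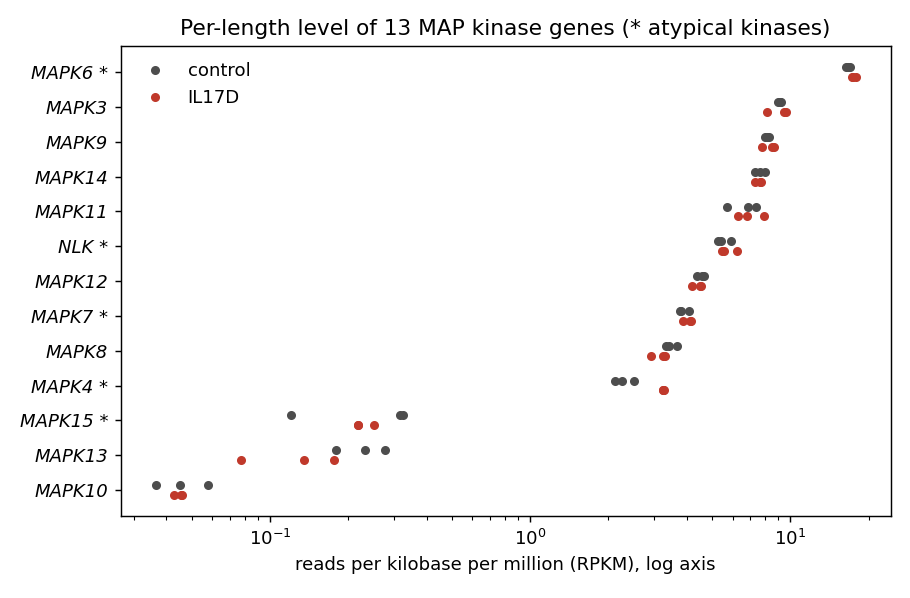
Level per length (RPKM, log axis) of 13 MAP kinase genes, with 1 point per library, control in grey and IL17D in red. The asterisk, labelled atypical, marks MAPK4, MAPK6, MAPK7, MAPK15 and NLK, although MAPK7 keeps the classical loop motif. By this length, over merged exons, MAPK6 lies at the top, and the MAPK4 points of the IL17D libraries (3.24 to 3.28 RPKM) lie to the right of those of control (2.11 to 2.51 RPKM).

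The surrounding pathway was described through 8 lists of kinases, regulators and substrates. They were drawn from textbook knowledge with earlier results of these data known, so calls among them are a description. The lists held 86 genes, of which 78 were tested. Of these 78, 0 were called higher and 1 was called lower by edgeR's quasi-likelihood test, where 0.673% and 0.908% of all tested genes were called. DESeq2 and limma voom also called 1 of the 78, and an unadjusted p under 0.05 was found for 13 by edgeR, 11 by DESeq2 and 12 by limma voom, beside shares of 11.6%, 7.69% and 11.6% over all tested genes. The log2 fold change was above 0 in 42 and below 0 in 36, with a median of 0.0055. The groups did not overlap for 12 of the 78, close to the 15.8% of all tested genes.

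The gene called lower belonged to the list around NLK, in which 14 of 14 genes were tested and the median log2 fold change was 0.03. HIPK2 (ENSG00000064393; chr7:139561570-139777778, minus strand) encodes a nuclear kinase that acts with TAK1 and NLK in Wnt signalling and also phosphorylates p53. Its level was 192, 209 and 216 CPM in the control libraries and 169, 169 and 171 CPM in the IL17D libraries. All IL17D libraries lay below all control libraries, and the mean fell from 206 ± 12.1 to 169.9 ± 1.39 CPM (SD, n = 3 each). The log2 fold change was −0.28 (SE 0.0412, 95% interval −0.36 to −0.19; edgeR's quasi-likelihood test, Benjamini-Hochberg adjusted p = 4.76e-05). None of the other 13 genes of that list, which holds TAK1 (MAP3K7), its TAB partners and the TCF and LEF factors, was called.

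In each of the other 7 lists 0 genes were called by edgeR, DESeq2 or limma voom. The ERK3/ERK4-MK5 list holds regulators of ERK3 stability and substrates of ERK3 and MK5. It had 14 of 15 genes tested and a median log2 fold change of 0.0022. An unadjusted p under 0.05 was found for 2 genes by edgeR, 1 by DESeq2 and 1 by limma voom. The shares over all tested genes were 11.6%, 7.69% and 11.6%. NCOA3, which encodes the ERK3 substrate SRC-3, had the smallest p of the list. It was at 492 ± 23.6 CPM in control and 522 ± 15.6 CPM in IL17D libraries (log2 fold change 0.09, adjusted p = 0.286 by edgeR). The list of RAC and CDC42 family GTPases and PAK scaffolds had 12 of 15 genes tested, with a median of 0.00925 and 0 genes at an unadjusted p under 0.05 by any of the 3 tools. RHOQ, a CDC42 relative, had its smallest p (log2 fold change 0.07, adjusted p = 0.672 by edgeR). CDC42 itself had 7 to 17 counts per library. It was tested and so enters the counts and medians given here, but nothing is read from its level. Of its exon bases, 57.1% lie under AL031281.2, a gene on the same strand. How reads in such overlaps were assigned is not given in the sources used here.

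The 11 PAK substrates were all tested, with a median of −0.03 and groups that did not overlap for 4 (15.8% over all tested genes). By each tool 2 genes had an unadjusted p under 0.05. The shares over all tested genes were 11.6% by edgeR, 7.69% by DESeq2 and 11.6% by limma voom. MYLK, which encodes myosin light chain kinase, came nearest to the threshold, at 115, 108 and 117 CPM in control and 101, 99.6 and 104 CPM in IL17D libraries (log2 fold change −0.16, SE 0.0459, adjusted p = 0.0677 by edgeR). Of the group II PAK genes only PAK4 was tested (log2 fold change 0.03, adjusted p = 0.872 by edgeR). The ERK5 list had 8 of 10 genes tested and a median of 0.05. It had 3 genes with an unadjusted p under 0.05 by each tool, again beside 11.6%, 7.69% and 11.6% over all tested genes. With so few genes per list nothing is read from such counts. KLF4, a transcription factor downstream of ERK5, was at 20.2, 20.5 and 19.0 CPM in control and 22.3, 23.4 and 25.4 CPM in IL17D libraries, without overlap (log2 fold change 0.25, SE 0.0883, adjusted p = 0.192 by edgeR). MAP2K5, which activates ERK5, went the other way, also without overlap (log2 fold change −0.21, adjusted p = 0.293 by edgeR). Of the 8 tested genes of that list, 6 had a log2 fold change above 0 and 2 below 0.

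The median log2 fold change of the 8 other MAP kinases listed was −0.03. An unadjusted p under 0.05 was found for 1, 0 and 1 genes by edgeR, DESeq2 and limma voom. The shares over all tested genes were 11.6%, 7.69% and 11.6%. MAPK13 had the smallest p, from 21, 29 and 27 counts in control and 16, 21 and 8 counts in IL17D libraries (log2 fold change −0.80, 95% interval −1.54 to −0.05, adjusted p = 0.386 by edgeR). The 10 other MAPK-activated kinases had a median of 0.00655. They had 3 genes at an unadjusted p under 0.05 by each tool, beside the same shares over all tested genes. The smallest p was that of RPS6KA3, which encodes the ERK-activated kinase RSK2 (177 ± 8.19 CPM in control, 163 ± 3.85 CPM in IL17D, log2 fold change −0.12, adjusted p = 0.197 by edgeR).

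**Figure D4:**
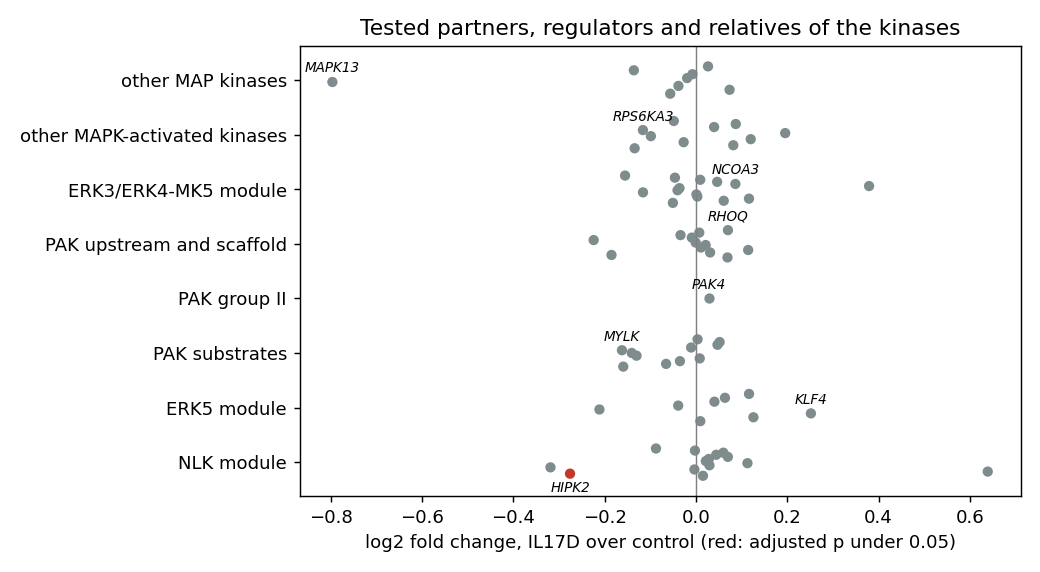
Log2 fold change of IL17D over control (horizontal axis) of the 78 tested genes in 8 lists of partners, regulators and relatives, with 1 point per gene and the gene of smallest p in each list named. HIPK2 (−0.28, red) is the only point with an adjusted p under 0.05, and the points range from −0.80 to 0.64.

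MAPK4 lies on the long arm of chromosome 18, and 42 annotated genes start within 1 Mb of it, of which 11 were tested and 0 were called by edgeR, DESeq2 or limma voom (2, 0 and 2 with an unadjusted p under 0.05, beside 11.6%, 7.69% and 11.6% of all tested genes). Their log2 fold changes ran from −0.15 to 0.92 with a median of 0.03, with 8 above 0 and 3 below 0. The groups did not overlap for 2 of the 11, beside 15.8% of all tested genes. The nearest tested genes on the side of lower coordinates were SKA1, a spindle protein gene 166 kb away (log2 fold change −0.03, adjusted p = 0.948 by edgeR), and CXXC1, which encodes a CpG-binding protein, 272 kb away (0.10, adjusted p = 0.693 by edgeR). On the other side MRO, 63 kb away, had 11, 11 and 13 counts in control and 14, 32 and 21 counts in IL17D libraries (log2 fold change 0.92, 95% interval 0.11 to 1.73, adjusted p = 0.345 by edgeR). Its groups did not overlap, by a gap of only 0.0427 CPM. The next, ME2, which encodes a mitochondrial malic enzyme, was 147 kb away and its log2 fold change was 0.05 (adjusted p = 0.761 by edgeR).

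**Figure D5:**
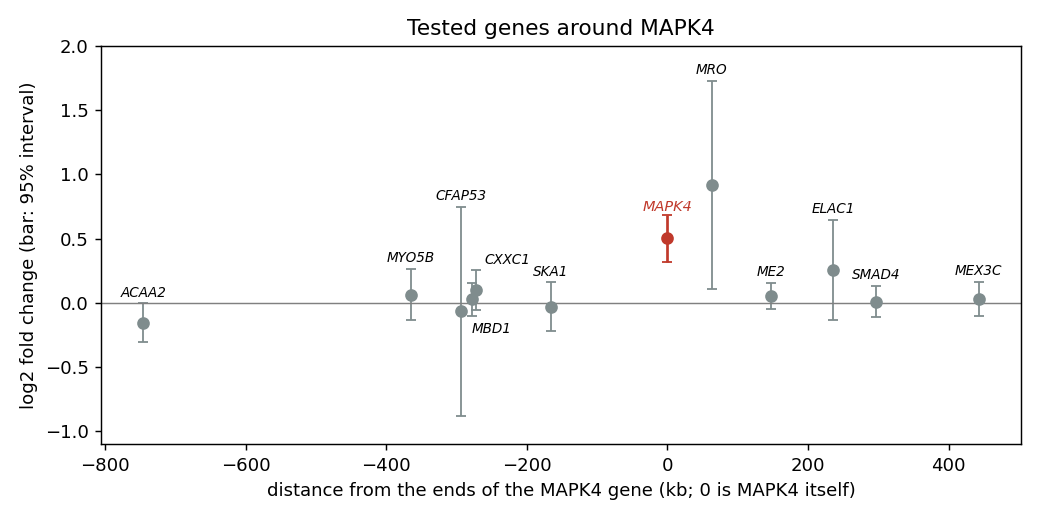
Log2 fold change of IL17D over control with its 95% interval (vertical axis) for MAPK4 (red) and the 11 tested genes around it (grey), by distance from MAPK4 in kb. MRO, next to MAPK4, has a wide interval (0.11 to 1.73), and SKA1 and ME2 lie near 0.

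The genes whose pattern over the 6 libraries was closest to that of MAPK4 were found by the root mean square difference of log2 CPM centred on each gene's mean, over 14349 genes with a mean of at least 1 CPM. The median difference was 0.285, and the closest were CES3 (0.0632), ASH1L-AS1 (0.0657), RCOR2 (0.0727), MIR5587 (0.0728) and TFPI2 (0.0776). TFPI2, an inhibitor of serine proteases, was the most abundant of them, at 431, 430.5 and 433 CPM in control and 603, 602 and 623 CPM in IL17D libraries. MIR5587 is a microRNA gene of 53 bases with 27 to 48 counts per library. The measure picks genes that are higher in the IL17D libraries by construction.

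Overlaps and near-copies limit some levels. The share of 31-base stretches also found in transcripts of other genes was 27.6% for MAPKAPK5, 21.0% for MAPK6 and 14.1% for PAK1, and 0.246% to 8.36% for the other members. For MAPK6 these were chiefly the pseudogenes MAPK6P1 to MAPK6P6, of which only MAPK6P3 (9 counts over all libraries) and MAPK6P5 (1 count) were counted at all. For MAPKAPK5 the largest parts came from genes lying over it. ADAM1A on the same strand covers 15.2% of its exon bases and had 0 counts. All 2129 bases of ADAM1A lie in these exons, so its 0 counts do not show how reads there were assigned. The antisense gene MAPKAPK5-AS1 covers 5.65% of the MAPKAPK5 exon bases. It was at 17.6 CPM in control and 16.5 CPM in IL17D libraries (log2 fold change −0.10, adjusted p = 0.796 by edgeR).

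On the opposite strand of MAPK7, B9D1, a gene of the ciliary transition zone, and MFAP4, a matrix protein gene, together cover 6.66% of its exon bases. B9D1 was at 21.0 CPM in control and 19.1 CPM in IL17D libraries (log2 fold change −0.13, adjusted p = 0.651 by edgeR), about the level of MAPK7 itself, and MFAP4 at 1.22 and 1.27 CPM. AP003680.1 covers 14.8% of PAK1 and AC105219.1 covers 5.43% of MAPK15, both on the opposite strand and both with 0 counts. AC012433.1 covers 4.38% of MAPK4 on the same strand, with 1 count in all. Whether counting used strand is not given in the sources used here, so reads of MAPKAPK5 or MAPK7 and of the genes on their opposite strands cannot be told apart with certainty where they overlap. Reads in the same-strand overlaps of MAPKAPK5 and MAPK4 may also have gone uncounted, which was not tested.

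The remaining genes inside these loci shared no exon bases with the kinases. LEO1, at the MAPK6 locus on the opposite strand, was at 45.4 CPM in control and 42.3 CPM in IL17D libraries (log2 fold change −0.10, adjusted p = 0.620 by edgeR). AC090970.1, AC090970.2, AC023906.5 and MAPK6-DT at MAPK6, RPS2P41 at MAPKAPK5, RPS29P22 and RF00006 at NLK, RNU6-42P and RNU4-89P at PAK2 and FCF1P4 at PAK3 had 0 to 72 counts over all libraries, and the pseudogene MAPKAPK5P1 elsewhere in the genome had 0.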

How the data were processed

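RNA from A549 cells was sequenced in 6 libraries, 3 with the empty vector and 3 with IL17D. The authors deposited 1 table of raw read counts per gene, unnormalised, with gene coordinates and lengths. Alignment with Bowtie2 and the build hg38 come from the submitters' processing notes, and the counting tool is not given in the sources used here. All 58735 gene lengths equalled merged exon lengths of GENCODE release 29, and 0 per-sample columns were left unmapped. The deposited counts were filtered with filterByExpr (15754 genes), scaled by TMM (factors 0.997 to 1.00) and fitted with edgeR 4.0.16 (glmQLFit, glmQLFTest) in R 4.3.3, with Benjamini-Hochberg adjustment over all tested genes at 0.05. CPM used TMM-scaled totals, and RPKM divided by the deposited length. Alternatives were DESeq2 1.42.0, limma voom 3.58.1, other scalings and filters, a replicate block and leaving out each library. Calculations were tested on simulated data. Intervals of fold changes come from the edgeR fit and cover the spread between libraries, whereas the exact interval of PAK3 covers counting error only.

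The members and lists were chosen with earlier results of these data known. Named were all members, IL17D, in each list the called genes (at most 5) or the smallest p, overlapping genes and pseudogenes, called genes and the nearest 2 tested genes per side within 1 Mb of MAPK4, and the 5 genes most like it. Some others, such as MAP2K5 and CDC42, were named for contrast or to state a limit. Results for 1 MAP kinase gene are not reported here, and it was left out of the lists, shares and orders.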

Additional observations from a re-analysis of the deposited data

How the results depend on the processing

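The log2 fold change of MAPK4, on which the set was chosen, ran from 0.45 to 0.58 over 13 alternatives, as a description with no test. HIPK2 was the 1 gene called among the pathway lists in all 13 (log2 fold change −0.32 to −0.24, adjusted p 9.36e-09 to 0.00108). PAK1 stayed below 0 and was not called in any (log2 fold change −0.19 to −0.12, adjusted p 0.195 to 0.634). Over all genes, 106 were called higher and 143 lower. Leaving out 1 library gave 69 to 129 higher and 76 to 138 lower, and the libraries that moved a count by over 1.5 times were IL17D replicate 3 (69 higher, 76 lower), IL17D replicate 1 (79 lower) and control replicate 2 (94 lower). The other settings gave 85 to 121 higher and 111 to 174 lower. Small differences changed sign when 1 library was left out. The log2 fold change of MAPK15 ran from −0.4802 to 0.0914 over these fits (above 0 without control replicate 2, at 0.041, or 3), that of NLK from −0.0117 (without IL17D replicate 2) to 0.1039, that of MAPKAPK5 from −0.0704 to 0.0018 (without control replicate 2), and that of PAK2 from −0.063 to 0.0119 (without control replicate 3), with 0.0039 without IL17D replicate 1. MAPK15 could not be fitted with at least 10 counts in every library. Same-numbered libraries did not deviate together (correlations 0.0236, −0.0278 and −0.0255), and with the replicate number as a block 115 genes were called higher and 157 lower, with 1 member and 1 list gene called. Depth limits MAPK15 and PAK3 most.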
